A study of Homo sapiens with 24 samples.

Results

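A set of 10 genes for matrix and membrane proteases, a protease inhibitor, plasminogen activators, the urokinase receptor and tissue factor was followed in 2 human bladder cancer cell lines. Its members were MMP1, MMP10, MMP13, MMP14, PLAU, PLAUR, PLAT, F3, ADAM8 and TIMP1. The genes were taken by symbol from a count table of 58721 genes. They were chosen with earlier results of these data known, so shares of members called serve as a description only. RNA was measured by QuantSeq FWD, a 3′ RNA-seq assay, in RT112, which the study classes as luminal papillary (LumP), and in SCaBER, which it classes as basal/squamous (Ba/Sq). All cells were transfected with siRNA in Lipofectamine RNAiMax. They received siControl (the siControl number 2 of the labels), siZBED2-1, siZBED2-2, siFOXA1 (number 1), siFOXA1+siZBED2-1 or siFOXA1+siZBED2-2, and the last pair of groups is called the double knock-downs. RT112 was grown in RPMI and SCaBER in DMEM, each with 10% FBS, so that line and medium cannot be told apart. Each of the 12 groups held 2 libraries. The labels number them by experiment batch without saying that they were separate cultures, so p-values measure only the spread between these libraries, which may be technical. With a single FOXA1 siRNA, loss of FOXA1 and any other effect of that siRNA cannot be told apart. The same holds for loss of ZBED2 where siZBED2-1 and siZBED2-2 differ. Where they agree, loss of ZBED2 was not tested apart from other effects. Under siZBED2-2 a fall of ZBED2 itself passed the test in neither line.

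Matrix metalloproteinases (MMPs) cut collagens and other matrix proteins, and TIMP1 is a secreted inhibitor that binds them. Urokinase (PLAU), concentrated at the cell surface by its receptor PLAUR, and tissue-type plasminogen activator (PLAT) turn plasminogen into plasmin, which dissolves fibrin and also activates several MMPs. Tissue factor (F3) is the membrane receptor for factor VII and starts the extrinsic clotting cascade, while ADAM8 is a membrane protease of the disintegrin and metalloproteinase family. These genes are known in carcinomas for their part in invasion, and FOXA1, a forkhead factor of luminal urothelium, and ZBED2, a zinc finger factor, are the transcription regulators that the siRNAs targeted.

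Library totals ran from 4425404 to 6119210 counts. Levels are given in counts scaled to a common total (CPM) on TMM-scaled library sizes, where 3 counts, the limit that a count of 0 allows, were worth 0.474 to 0.679 CPM. Floors and counting intervals cover counting error only, and no molecular identifiers were stated, so PCR copies are not independent molecules. The intervals given for log2 fold changes rest on the standard errors of the tests, which take in the spread between libraries. FOXA1 changed under siFOXA1 by −2.36 ± 0.38, adjusted p 5.68e-05 on the log2 scale in RT112. In SCaBER, FOXA1 had 20 and 28 counts under siControl and 4 and 6 under siFOXA1, and its change did not pass the test (−2.09 ± 1.23, adjusted p 0.272). In the RT112 double knock-downs FOXA1 stood at 4.04 and 11.4 CPM with siZBED2-1 and at 15.7 and 10.0 CPM with siZBED2-2. Under siFOXA1 alone it stood at 6.87 and 9.57 CPM (difference 0.28 ± 0.35, adjusted p 0.773). In SCaBER the double knock-downs had 0 and 1 FOXA1 counts with siZBED2-1 and 3 and 2 with siZBED2-2. This did not pass against siFOXA1 alone (−2.10 ± 1.24, adjusted p 0.438). siZBED2-1 alone left 14 and 1 FOXA1 counts there (adjusted p 0.564 against siControl). ZBED2 fell under siZBED2-1 in RT112 (−3.97 ± 0.93, adjusted p 0.00624) and likewise in SCaBER (−1.96 ± 0.47, adjusted p 0.00848). Under siZBED2-2 the ZBED2 change passed in neither line (RT112 −1.52 ± 0.80, adjusted p 0.903; SCaBER −0.61 ± 0.43, adjusted p 0.844), and siFOXA1 alone lowered ZBED2 in RT112 (−2.48 ± 0.84, adjusted p 0.0325). These ZBED2 calls were lost without 1 library: that of siZBED2-1 in RT112 without siZBED2-1 replicate 2 (−3.04, adjusted p 0.0695), in SCaBER without siZBED2-1 replicate 1 (−1.37, adjusted p 0.205), and that of siFOXA1 without siControl replicate 1 (−2.27, adjusted p 0.156), siControl replicate 2 (−2.67, adjusted p 0.0742) or siFOXA1 replicate 2 (−1.84, adjusted p 0.213). For the mean of the ZBED2 siRNAs, ZBED2 fell in RT112 (−2.75 ± 0.68, adjusted p 0.0264), but not without siControl replicate 1 (−2.54, adjusted p 0.224), siControl replicate 2 (−2.94, adjusted p 0.116) or siZBED2-1 replicate 2 (−2.28, adjusted p 0.06), nor with limma on TPM (−2.36, adjusted p 0.12). In SCaBER that change did not pass (−1.29 ± 0.37, adjusted p 0.072), although it did with the replicate block (−1.33, adjusted p 0.031), with no filter (−1.28, adjusted p 0.0374), without siZBED2-1 replicate 2 (−1.79, adjusted p 0.0115) or without siZBED2-2 replicate 2 (−1.52, adjusted p 0.0368). In the double knock-downs ZBED2 was lower than under siFOXA1 alone in SCaBER (−1.85 ± 0.38, adjusted p 0.00256), a call that passed with each library left out and not with limma on TPM (−1.62, adjusted p 0.0682), whereas in RT112 the groups overlapped and the difference did not pass (−1.03 ± 0.75, adjusted p 0.573). All of these p-values, and those that follow, are from edgeR's quasi-likelihood test with Benjamini-Hochberg adjustment over every gene tested in the fit, and a gene is said to rise or fall where the adjusted p was under 0.05. Changes are log2 fold changes ± a standard error (SE) worked back from the test statistic. As markers of the labelled subtypes, 8 of 10 luminal urothelial genes were lower and 8 of 10 basal squamous genes higher in SCaBER than in RT112. Of the other basal squamous genes, KRT16 was lower in SCaBER (−1.21, adjusted p 0.00147) and TP63 did not pass (−0.44, adjusted p 0.483). The luminal genes KRT20 and UPK3A were not tested. Of the markers of other cells, summed levels of the 4 endothelial genes reached 5.68 CPM and of the 4 blood genes 2.58 CPM at most, while the 6 fibroblast genes summed to 107.9 to 186 CPM in RT112 and 16.6 to 45.03 CPM in SCaBER, mostly LUM (134 CPM on average in RT112). COL3A1 had 0 counts in all 24 libraries. Mitochondrial transcripts took 18.6% to 22.7% of counts in RT112 libraries with siFOXA1 and 8.21% to 17.8% in those without, against 9.29% to 12.9% and 9.55% to 12.0% in SCaBER, and their part in the results was not tested.

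MMP1 (ENSG00000196611), MMP10 (ENSG00000166670) and MMP13 (ENSG00000137745) are neighbours in the MMP cluster of chromosome 11, within 185.2 kb from 102770502 to 102955732 on GRCh38.p14 in RefSeq. MMP14 (ENSG00000157227) lies on chromosome 14 from 22836585 to 22847758, and PLAUR (ENSG00000011422) on chromosome 19 from 43646095 to 43670169. PLAU (ENSG00000122861, 73908832 to 73917494) and ADAM8 (ENSG00000151651, 133262423 to 133276868) are both on chromosome 10. F3 (ENSG00000117525) is on chromosome 1 from 94529173 to 94541759, TIMP1 (ENSG00000102265) on the X chromosome from 47582436 to 47586789, and PLAT has the identifier ENSG00000104368. Genes that overlap members held few reads beside them over the 24 libraries: WTAPP1 128 counts against 9060 for MMP1, C10orf55 169 against 12643 for PLAU, RN7SL368P 179 against 18297 for PLAUR and SYN1 0 against 9257 for TIMP1. The reads of LOC124904724, a long non-coding RNA that also overlaps PLAUR, were not analysed here.

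The promoters printed here are those of PLAUR, F3, MMP14 and ADAM8, the members outside the chromosome 11 cluster that siFOXA1 changed in SCaBER. Each is the 250 bases before the RefSeq transcription start on GRCh38.p14, written 5′ to 3′ on the strand of the gene: PLAUR at chr19:43670170-43670419 (minus strand), F3 at chr1:94541760-94542009 (minus strand), MMP14 at chr14:22836335-22836584 (plus strand) and ADAM8 at chr10:133276869-133277118 (minus strand). Capitals mark matches to TGANTCA, the letters of the AP-1 motif.
PLAUR: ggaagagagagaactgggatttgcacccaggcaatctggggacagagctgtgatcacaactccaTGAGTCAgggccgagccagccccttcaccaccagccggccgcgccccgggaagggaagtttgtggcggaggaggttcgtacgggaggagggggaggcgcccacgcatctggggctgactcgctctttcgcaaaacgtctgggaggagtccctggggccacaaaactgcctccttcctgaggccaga
F3: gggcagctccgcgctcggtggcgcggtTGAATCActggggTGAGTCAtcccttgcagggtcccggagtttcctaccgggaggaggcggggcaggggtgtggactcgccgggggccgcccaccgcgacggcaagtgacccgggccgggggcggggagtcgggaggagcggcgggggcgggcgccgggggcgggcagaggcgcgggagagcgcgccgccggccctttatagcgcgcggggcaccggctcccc
MMP14: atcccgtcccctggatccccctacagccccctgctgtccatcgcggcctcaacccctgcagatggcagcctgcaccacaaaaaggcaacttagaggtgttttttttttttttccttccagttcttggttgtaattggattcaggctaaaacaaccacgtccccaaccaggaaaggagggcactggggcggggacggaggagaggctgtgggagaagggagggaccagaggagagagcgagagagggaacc
ADAM8: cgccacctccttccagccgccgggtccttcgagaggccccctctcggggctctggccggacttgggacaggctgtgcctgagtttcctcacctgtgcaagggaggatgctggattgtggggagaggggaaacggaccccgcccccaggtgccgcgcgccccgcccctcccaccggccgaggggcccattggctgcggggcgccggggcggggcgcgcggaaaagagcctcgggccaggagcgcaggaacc
AP-1 letters and forkhead letters (TGTTTAC or TATTTAC) were searched on both strands in windows from 250 bases before to 50 after the start, and the matches of these motifs did not overlap in the members. PLAUR held TGAGTCA 186 bases before its start, and F3 held TGAATCA 223 and TGAGTCA 210 bases before. MMP14 and ADAM8 held neither motif in this window, and the same was true of both PLAU windows and of TIMP1. MMP10 held TGAATCA 67 and GTAAATA 245 bases before its start. Of 35116 promoter windows of the same length, 7.71% held the AP-1 letters and 5.97% the forkhead letters. The 7 members searched had 8 windows in the RefSeq promoter table. MMP1 and MMP13 had no window there and were not searched, and PLAT was left out of the search. A match describes the letters only and was not tested as a binding site.

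Under siControl, SCaBER held more RNA than RT112 of MMP1, MMP13, PLAU, PLAUR, F3 and ADAM8 and less of PLAT and TIMP1. These 8 called genes of 10 tested stand beside 33.6% of the 14823 genes tested in the fit of both lines. ADAM8 stood at 4.15 and 6.26 CPM in the RT112 libraries and at 209 and 215 CPM in SCaBER (log2 fold change 5.33 ± 0.23, adjusted p 6.17e-19). MMP13 stood at 1.75 and 1.29 CPM in RT112 and at 65.9 and 101 CPM in SCaBER (log2 fold change 5.77 ± 0.54, adjusted p 1.81e-10). MMP1, a secreted collagenase, was close to absent from RT112, where no library of any treatment had more than 1 count. In SCaBER siControl libraries MMP1 stood at 113 and 183 CPM, and with 1 count in all in RT112 siControl its ratio was 1470 with a 95% counting interval of 264 to 58300. F3 stood at 65.1 and 46.9 CPM in RT112 and at 372 and 503 CPM in SCaBER (log2 fold change 2.97 ± 0.18, adjusted p 2.35e-15). PLAU stood at 12.4 and 11.4 CPM in RT112 and at 142 and 229 CPM in SCaBER (log2 fold change 3.96 ± 0.30, adjusted p 1.75e-12). For all 5 of these genes the SCaBER libraries lay above both RT112 libraries by a wide margin. PLAUR, the receptor of PLAU, differed less, with 77.5 and 57.1 CPM in RT112 and 101 and 115 CPM in SCaBER (log2 fold change 0.68 ± 0.17, adjusted p 0.00139), and the call was lost without RT112 siControl replicate 2 (0.48, adjusted p 0.0864). PLAT ran the other way, with 25.3 and 28.5 CPM in RT112 and 6.74 and 2.95 CPM in SCaBER (log2 fold change −2.46 ± 0.50, adjusted p 0.000172). TIMP1 was also lower in SCaBER, at 34.4 and 59.7 CPM against 102 and 108 CPM (log2 fold change −1.16 ± 0.20, adjusted p 2.68e-05). MMP14, which is anchored in the membrane, stood at 95.2 and 124 CPM in RT112 and 83.4 and 89.2 CPM in SCaBER, a difference that did not pass the test (−0.34 ± 0.18, adjusted p 0.149, 95% interval −0.71 to 0.03). MMP10 was at 5.43 and 9.65 CPM in SCaBER and had 0 and 9 counts in RT112 (3.10 ± 1.47, adjusted p 0.106), and its difference passed without RT112 siControl replicate 2 (8.24, adjusted p 0.0364). In such bulk samples, fewer cells that express a gene and less RNA per cell cannot be told apart.

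**Figure D1:**
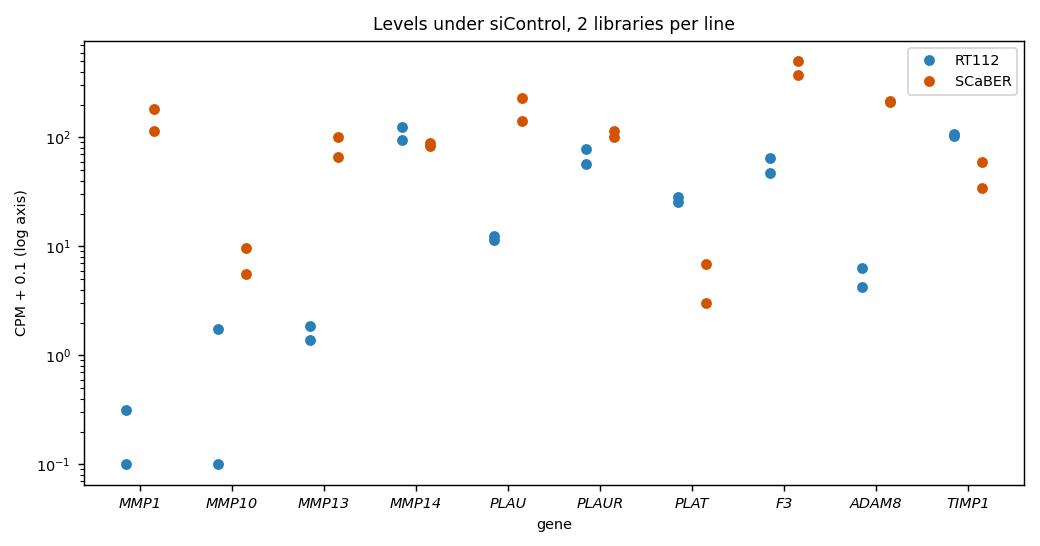
Levels of the 10 genes in the 2 siControl libraries of each line, in CPM plus 0.1 on a log axis, 1 point per library. ADAM8, MMP13, F3, PLAU and MMP1 sit higher in SCaBER, PLAT and TIMP1 sit higher in RT112, and the MMP14 points of the lines lie close together.

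The siRNAs against FOXA1 and ZBED2 changed these genes in comparisons within each line, where 8 members passed the filter on low counts in RT112 (not MMP1 and MMP10) and 10 in SCaBER. siFOXA1 against siControl changed 4 of the 8 in RT112, beside 23.3% of all genes tested there: PLAU, MMP14 and PLAUR rose and F3 fell. The RT112 libraries with siFOXA1 were also those with the higher mitochondrial share. In SCaBER it changed 5 of 10, beside 17.8%: ADAM8, PLAUR and MMP14 rose, and MMP1 and F3 fell. The median log2 change of the members was 1.06 in RT112 and −0.01 in SCaBER, where the medians of all tested genes were −0.01 and −0.02. siZBED2-1 changed 3 members in RT112, beside 8.8% of all genes (F3 rose, PLAT and MMP14 fell), and 3 in SCaBER, beside 4.65% (MMP1 and ADAM8 rose, MMP13 fell). With siZBED2-2, edgeR called 0 members in either line, beside 0.166% of all genes in RT112 and 0.625% in SCaBER. At an unadjusted p under 0.05 there were 2 members in RT112 and 4 in SCaBER, beside 764 of 13264 and 992 of 13129 genes tested. DESeq2 called 1 and 0 members, beside 0.528% of all genes in RT112. With limma on TPM 0 and 0 members were called, beside 0.0226% of all genes in RT112. The mean of both ZBED2 siRNAs against siControl changed 2 members in RT112 (beside 2.37%) and 2 in SCaBER (beside 1.83%). All of these comparisons within a line share the siControl libraries. Of the 50 called values over 18 comparisons, 50 had the same sign in batch 1 and in batch 2. These signs come from the libraries that gave the calls, so they describe the calls and are no separate check.

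**Figure D2:**
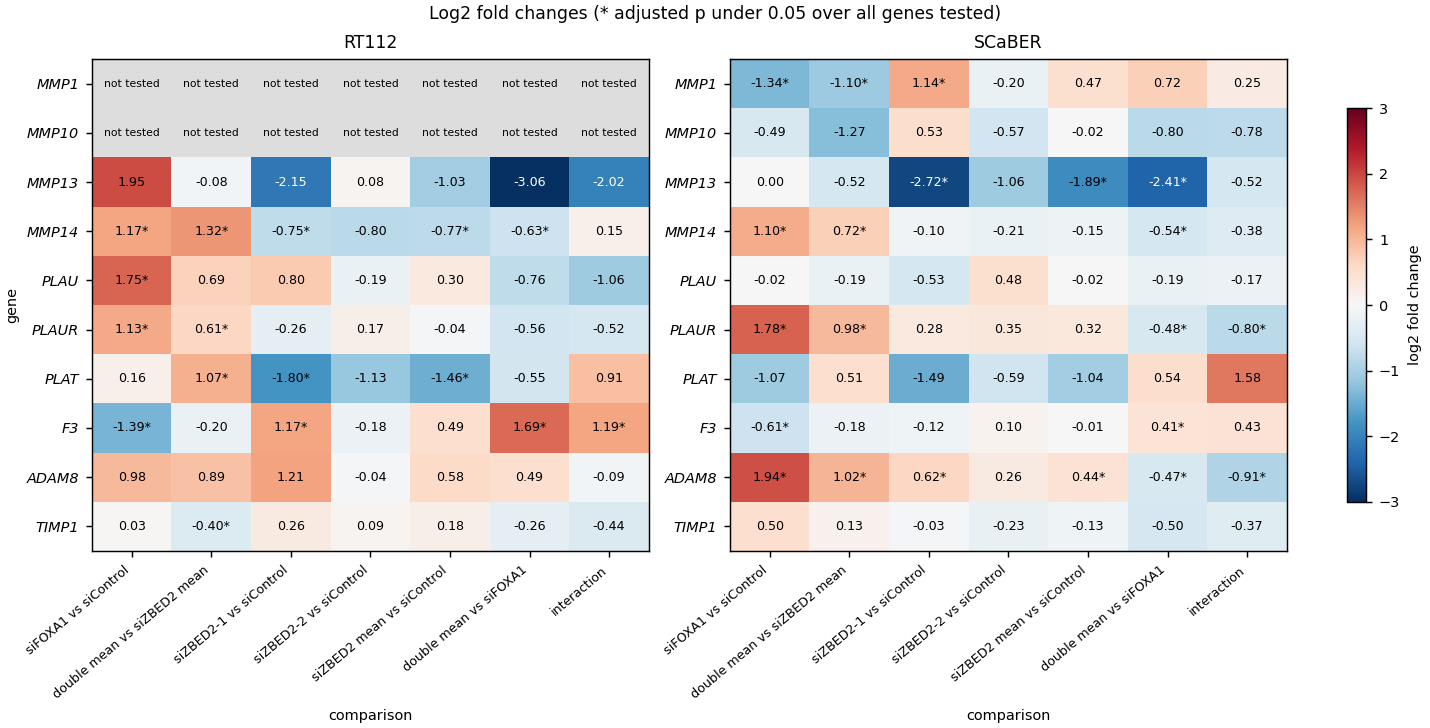
Log2 fold changes of the 10 genes (vertical axis) in 7 comparisons (horizontal axis) in RT112 (left) and SCaBER (right), red for higher and blue for lower, with an asterisk where the edgeR adjusted p was under 0.05. MMP14 and PLAUR are raised in both columns that add siFOXA1 in both lines, MMP13 is lowered in SCaBER by siZBED2-1, and grey cells were not tested.

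The secreted collagenases MMP1 and MMP13 changed in opposite directions with siZBED2-1 in SCaBER. MMP1 rose with siZBED2-1 and fell with siFOXA1, whereas MMP13 fell with siZBED2-1 and showed no called change with siFOXA1. MMP1 stood at 113 and 183 CPM under siControl, at 255 and 407 CPM under siZBED2-1, at 85.8 and 172 CPM under siZBED2-2 and at 53.4 and 64.7 CPM under siFOXA1. The siFOXA1 libraries lay below and the siZBED2-1 libraries above both siControl libraries, while those of siZBED2-2 overlapped them. The fall with siFOXA1 was −1.34 ± 0.30, adjusted p 0.00147 on the log2 scale, and within batches it was −1.08 and −1.49. The rise with siZBED2-1 was 1.14 ± 0.29, adjusted p 0.0146 (within batches 1.17 and 1.15) and was lost without siControl replicate 1 (0.84, adjusted p 0.101) or siZBED2-1 replicate 2 (0.77, adjusted p 0.286). siZBED2-1 and siZBED2-2 differed from each other for MMP1 (1.33 ± 0.29, adjusted p 0.00449), again not without siZBED2-2 replicate 1 (0.92, adjusted p 0.0889) or siZBED2-1 replicate 2 (0.96, adjusted p 0.146). With DESeq2 none of the MMP1 calls within SCaBER passed, the adjusted p of the siFOXA1 change being 0.0953 and that of the siZBED2-1 change 0.258.

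In the double knock-downs MMP1 stood at 73.0 and 169 CPM with siFOXA1+siZBED2-1 and at 51.6 and 103 CPM with siFOXA1+siZBED2-2. Against the mean of the ZBED2 siRNAs alone it was lower (−1.10 ± 0.21, adjusted p 4e-04, DESeq2 adjusted p 0.0666), in groups that overlapped. Against siFOXA1 alone the difference did not pass (0.72 ± 0.27, adjusted p 0.158), although it passed with the replicate number as a block (0.63, adjusted p 0.00324), without siFOXA1+siZBED2-1 replicate 1 (0.96, adjusted p 0.00685) or without siFOXA1+siZBED2-2 replicate 1 (0.93, adjusted p 0.00391). The batches differed for this gene, since replicate 2 lay above replicate 1 in 6 of 6 SCaBER groups, by 1.21 to 2.31 times. The same order held in 6 of 6 groups for MMP13, by 1.17 to 2.31 times, and for MMP10.

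MMP13, a collagenase with a broad range of substrates, stood in SCaBER at 65.9 and 101 CPM under siControl and at 51.2 and 118 CPM under siFOXA1. With siZBED2-1 it stood at 11.8 and 13.8 CPM, and with siZBED2-2 at 27.7 and 52.2 CPM. Both ZBED2 siRNAs thus left all 4 libraries below both siControl libraries. The change was −2.72 ± 0.33, adjusted p 9.53e-07 with siZBED2-1 (within batches −2.43 and −2.83). With siZBED2-2 it was −1.06 ± 0.30, adjusted p 0.134, and passed once the replicate number was blocked (−1.09, adjusted p 0.00338), without siControl replicate 1 (−1.33, adjusted p 0.0305) or without siZBED2-2 replicate 2 (−1.58, adjusted p 0.0171). The siRNAs differed from each other (−1.66 ± 0.33, adjusted p 0.00184), a call lost without siZBED2-2 replicate 2 (−1.13, adjusted p 0.0847). On top of siFOXA1 the fall was repeated, with 10.7 and 14.6 CPM in siFOXA1+siZBED2-1 and 16.3 and 23.2 CPM in siFOXA1+siZBED2-2 against siFOXA1 alone (−2.41 ± 0.26, adjusted p 3.06e-07, within batches −1.91 and −2.65). That comparison shares no library with siZBED2 against siControl. The siFOXA1 change of MMP13 was 0.00 with a 95% interval of −0.60 to 0.60, and the interaction was −0.52 ± 0.38, adjusted p 0.617.

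In RT112, MMP13 was near the floor, with 8 and 7 counts under siControl, 29 and 28 under siFOXA1, 2 and 0 in siFOXA1+siZBED2-1 and 12 and 8 in siFOXA1+siZBED2-2. The siFOXA1 libraries were the highest of the 12, but neither the change with siFOXA1 (1.95 ± 1.37, adjusted p 0.337) nor that of the double knock-downs against siFOXA1 (−3.06 ± 1.17, adjusted p 0.211) passed the test. MMP10, a stromelysin that also activates other MMPs, ranged in SCaBER from 0 CPM in siFOXA1+siZBED2-2 replicate 1 to 15.5 CPM in siZBED2-1 replicate 2, with a median of 5.99 CPM over 12 libraries. The replicates were far apart, as in siZBED2-2 with 0.182 and 9.80 CPM, and none of its changes passed with all libraries. MMP10 was called without 1 library in SCaBER, between the ZBED2 siRNAs without siZBED2-2 replicate 2 (5.72, adjusted p 0.0245) and in the double knock-downs against siZBED2 without siZBED2-2 replicate 1 (−1.75, adjusted p 0.0437) or siFOXA1+siZBED2-2 replicate 2 (−4.50, adjusted p 0.00359). In RT112, 10 of 12 libraries had 3 or fewer MMP10 counts.

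**Figure D3:**
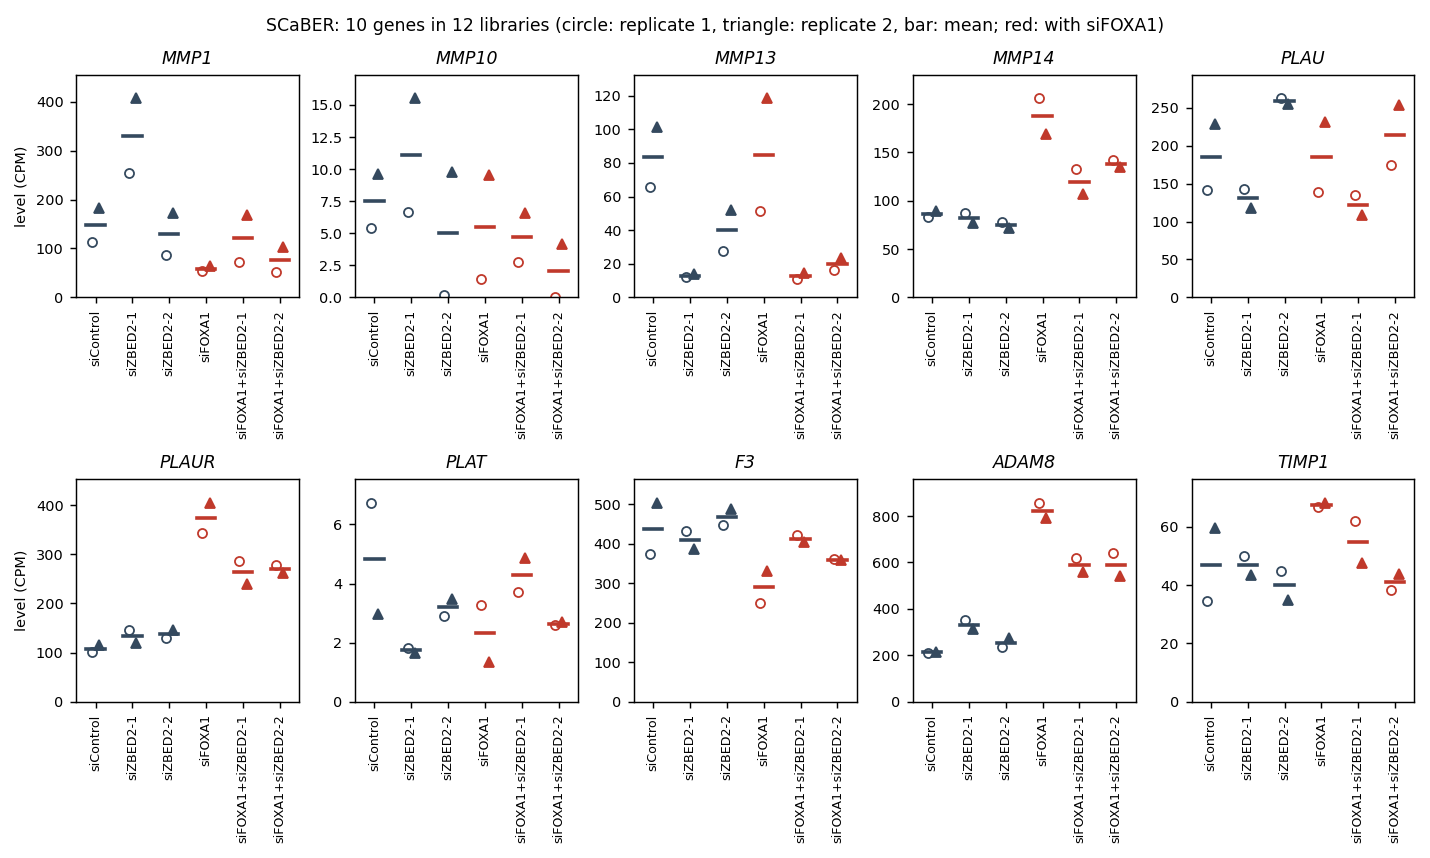
Levels in CPM (vertical axes from 0, 1 scale per gene) of the 10 genes in the 12 SCaBER libraries by siRNA, with replicate 1 as open circles, replicate 2 as filled triangles, bars for group means and red for groups with siFOXA1. ADAM8 and PLAUR are highest under siFOXA1 alone, at 858 and 789.8 CPM and 344 and 405 CPM, and MMP13 is lowest in the groups with siZBED2-1.

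MMP14, the membrane-anchored collagenase that activates MMP2 at the cell surface, rose with siFOXA1 by similar amounts in both lines. In RT112 it stood at 95.2 and 124 CPM under siControl and at 247 and 252 CPM under siFOXA1. In SCaBER the corresponding levels were 83.4 and 89.2 CPM and 206 and 169 CPM. The groups did not overlap in either line, and the changes were 1.17 ± 0.19, adjusted p 4.3e-05 in RT112 (within batches 1.37 and 1.02) and 1.10 ± 0.16, adjusted p 3.55e-06 in SCaBER (within batches 1.30 and 0.92). The lines were not shown to differ in this change (−0.07, 95% interval −0.58 to 0.45, adjusted p 1). On top of the ZBED2 siRNAs, in libraries that siFOXA1 against siControl did not use, MMP14 rose as well (1.32 ± 0.14, adjusted p 9.59e-08 in RT112 and 0.72 ± 0.11, adjusted p 3.11e-05 in SCaBER).

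The ZBED2 siRNAs went the other way for MMP14 in RT112, with 62.6 and 67.8 CPM under siZBED2-1 and 47.9 and 78.5 CPM under siZBED2-2, all 4 below both siControl libraries. Their mean change was −0.77 ± 0.16, adjusted p 0.00747 (within batches −0.79 and −0.76), and without siControl replicate 2 it no longer passed (−0.59, adjusted p 0.264). For siZBED2-1 the change was −0.75 ± 0.19, adjusted p 0.0118, lost without that siControl library (−0.57, adjusted p 0.174) or without siZBED2-1 replicate 1 (−0.70, adjusted p 0.0878). For siZBED2-2 it was −0.80 ± 0.19, adjusted p 0.0985, and it passed with the replicate block (−0.81, adjusted p 0.0142) or without siZBED2-2 replicate 2 (−1.20, adjusted p 0.0027). Replicate 2 lay above replicate 1 for MMP14 in 6 of 6 RT112 groups, by 1.02 to 1.64 times. The double knock-downs also held less MMP14 than siFOXA1 alone, at 143 and 159 CPM and 168 and 175 CPM in RT112 (−0.63 ± 0.15, adjusted p 0.0332) and at 132 and 107 CPM and 142 and 135 CPM in SCaBER (−0.54 ± 0.13, adjusted p 0.0147). The first call was lost without siFOXA1 replicate 1 (−0.64, adjusted p 0.0654) or 2 (−0.62, adjusted p 0.223) and with library size scaling alone (−0.61, adjusted p 0.0597), and the second without siFOXA1 replicate 1 (−0.39, adjusted p 0.235) or siFOXA1+siZBED2-1 replicate 2 (−0.47, adjusted p 0.0921). In SCaBER the ZBED2 siRNAs without siFOXA1 left MMP14 at 71.4 to 87.6 CPM, and the mean change did not pass (−0.15 ± 0.14, adjusted p 0.774).

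Among the plasminogen activators, the receptor PLAUR rose with siFOXA1 in both lines, PLAU rose in RT112, where its change differed from that in SCaBER, and PLAT fell with siZBED2-1 in RT112. PLAUR stood in RT112 at 77.5 and 57.1 CPM under siControl and at 138 and 159 CPM under siFOXA1 (log2 fold change 1.13 ± 0.19, adjusted p 6.8e-05). In SCaBER it stood at 101 and 115 CPM and 344 and 405 CPM (log2 fold change 1.78 ± 0.15, adjusted p 3.08e-11). Neither pair of groups overlapped, and the changes within batches were 0.83 and 1.47 in RT112 and 1.77 and 1.81 in SCaBER. The difference between the lines in this change did not pass (0.65 ± 0.23, adjusted p 0.133). Added to the ZBED2 siRNAs, siFOXA1 raised PLAUR too (0.61 ± 0.13, adjusted p 0.00149 in RT112 and 0.98 ± 0.10, adjusted p 1.2e-08 in SCaBER).

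In SCaBER the rise of PLAUR was smaller when a ZBED2 siRNA was present. The double knock-downs stood at 287 and 239 CPM and 279 and 263 CPM, all 4 libraries below both siFOXA1 libraries (−0.48 ± 0.12, adjusted p 0.0137). The interaction, which subtracts the ZBED2 siRNA change under siControl from that under siFOXA1, was −0.80 ± 0.17, adjusted p 0.0076 (within batches −0.73 and −0.89). It narrowly missed the threshold without siControl replicate 1 (−0.71, adjusted p 0.0542) or siFOXA1 replicate 2 (−0.68, adjusted p 0.0543), and the difference from siFOXA1 alone was lost without siFOXA1 replicate 2 (−0.35, adjusted p 0.348) or siFOXA1+siZBED2-1 replicate 2 (−0.42, adjusted p 0.0782). In RT112 the PLAUR levels of the double knock-downs, 107 and 108 CPM and 97.5 and 89.0 CPM, also lay below those of siFOXA1 alone. That difference missed the threshold (−0.56 ± 0.15, adjusted p 0.0566) and passed with the replicate block (−0.57, adjusted p 0.0238) or with RLE scaling (−0.57, adjusted p 0.0498).

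PLAU, the protease that PLAUR binds, stood in RT112 at 12.4 and 11.4 CPM under siControl and at 36.6 and 44.6 CPM under siFOXA1 (log2 fold change 1.75 ± 0.37, adjusted p 0.000962). In SCaBER its siControl levels of 142 and 229 CPM and siFOXA1 levels of 139 and 231 CPM overlapped (−0.02 ± 0.20, adjusted p 0.968, 95% interval −0.42 to 0.38). The lines differed in this change by −1.77 ± 0.40, adjusted p 0.00945 (within batches −1.55 and −1.91), a call that was lost without SCaBER siControl replicate 2 (−1.38, adjusted p 0.0562). With the ZBED2 siRNAs PLAU differed by siRNA in SCaBER, at 144 and 118 CPM under siZBED2-1 and 262 and 255 CPM under siZBED2-2 (−1.01 ± 0.20, adjusted p 0.00173), although neither passed against siControl (siZBED2-1 −0.53 ± 0.20, adjusted p 0.148; siZBED2-2 0.48 ± 0.20, adjusted p 0.502). The siControl replicates for PLAU were far apart, and without the first of them the fall with siZBED2-1 passed (−0.82, adjusted p 0.00698), as without the second did a rise with siZBED2-2 (0.88, adjusted p 0.0329), while the siRNAs no longer differed by the threshold without siZBED2-1 replicate 2 (−0.88, adjusted p 0.0526), and DESeq2 gave an adjusted p of 0.0508. In RT112 PLAU in the double knock-downs, 18.5 and 29.2 CPM and 21.4 and 26.2 CPM, lay between siControl and siFOXA1, with no called difference from siFOXA1 (−0.76 ± 0.30, adjusted p 0.221). Against the ZBED2 siRNAs alone the PLAU difference did not pass either (0.69 ± 0.26, adjusted p 0.0617), in groups that overlapped.

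PLAT fell with siZBED2-1 in RT112, from 25.3 and 28.5 CPM under siControl to 4.95 and 10.6 CPM (log2 fold change −1.80 ± 0.42, adjusted p 0.00591). With siZBED2-2 it stood at 10.2 and 14.5 CPM (−1.13 ± 0.40, adjusted p 0.602), again below both siControl libraries, and the mean of the siRNAs passed (−1.46 ± 0.33, adjusted p 0.0151, within batches −1.76 and −1.17). The siZBED2-1 call on PLAT was lost without siZBED2-1 replicate 1 (−1.35, adjusted p 0.114), and the mean without that library (−1.24, adjusted p 0.0607) or without siControl replicate 1 (−1.54, adjusted p 0.0517) or 2 (−1.39, adjusted p 0.147). siFOXA1 alone left PLAT at 31.5 and 29.2 CPM (0.16 ± 0.38, adjusted p 0.824, 95% interval −0.63 to 0.95). In the double knock-downs PLAT stood at 9.35 and 21.1 CPM with siZBED2-1 and 34.2 and 21.7 CPM with siZBED2-2, higher than under the ZBED2 siRNAs alone (1.07 ± 0.29, adjusted p 0.00926) in groups that overlapped, and not without siZBED2-1 replicate 1 (0.84, adjusted p 0.0628) or siFOXA1+siZBED2-1 replicate 2 (0.72, adjusted p 0.108). In SCaBER PLAT had 6 to 36 counts per library, and none of its changes passed.

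F3, tissue factor, fell with siFOXA1 in both lines, and in RT112 it was higher when a ZBED2 siRNA was given with siFOXA1 than with siFOXA1 alone. In RT112 F3 stood at 65.1 and 46.9 CPM under siControl and at 20.2 and 22.9 CPM under siFOXA1 (log2 fold change −1.39 ± 0.23, adjusted p 5.68e-05, within batches −1.66 and −1.02). With siZBED2-1 alone it rose to 134 and 119 CPM (log2 fold change 1.17 ± 0.21, adjusted p 0.000513), while with siZBED2-2 it stood at 53.1 and 46.0 CPM (−0.18 ± 0.21, adjusted p 0.993, 95% interval −0.62 to 0.26). The siRNAs against ZBED2 thus differed from each other for F3 (1.36 ± 0.21, adjusted p 0.000133). The double knock-downs stood at 73.5 and 80.3 CPM and 69.5 and 54.7 CPM, all 4 libraries above both siFOXA1 libraries (1.69 ± 0.21, adjusted p 4.22e-05, within batches 1.80 and 1.52). Against the ZBED2 siRNAs alone the F3 difference was −0.20 ± 0.15, adjusted p 0.394, with groups that overlapped. The interaction was 1.19 ± 0.27, adjusted p 0.0336 (within batches 1.43 and 0.87). It was lost without siControl replicate 1 (0.94, adjusted p 0.222), siFOXA1 replicate 1 (1.11, adjusted p 0.0508), siFOXA1 replicate 2 (1.27, adjusted p 0.125), siZBED2-1 replicate 2 (1.16, adjusted p 0.0636) or siFOXA1+siZBED2-2 replicate 1 (1.10, adjusted p 0.0519).

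In SCaBER, F3 stood at 372 and 503 CPM under siControl and at 250.5 and 329.7 CPM under siFOXA1, which did not overlap (log2 fold change −0.61 ± 0.14, adjusted p 0.00126, within batches −0.57 and −0.61). The call was lost without siFOXA1 replicate 1 (−0.42, adjusted p 0.0503) or siControl replicate 2 (−0.37, adjusted p 0.112). The F3 levels of the double knock-downs, 420.5 and 404 CPM and 359.7 and 358 CPM, were above those of siFOXA1 alone (0.41 ± 0.12, adjusted p 0.0451, within batches 0.63 and 0.20). That call did not hold without siFOXA1 replicate 1 (0.22, adjusted p 0.456), without siFOXA1+siZBED2-1 replicate 1 (0.40, adjusted p 0.0746) or 2 (0.43, adjusted p 0.0651), or with RLE scaling (0.41, adjusted p 0.0515). Neither the interaction (0.43 ± 0.17, adjusted p 0.21) nor the difference between the lines in the siFOXA1 change (0.78 ± 0.25, adjusted p 0.0876) passed, the latter doing so with the replicate block (0.77, adjusted p 0.0471). The F3 interaction passed without siControl replicate 1 (0.62, adjusted p 0.0475) or siFOXA1 replicate 2 (0.64, adjusted p 0.0426), the fits in which that of PLAUR was lost. The line difference of F3 passed without SCaBER siFOXA1 replicate 1 (0.97, adjusted p 0.0337), SCaBER siControl replicate 2 (1.01, adjusted p 0.0306) or RT112 siControl replicate 2 (1.00, adjusted p 0.0348).

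**Figure D4:**
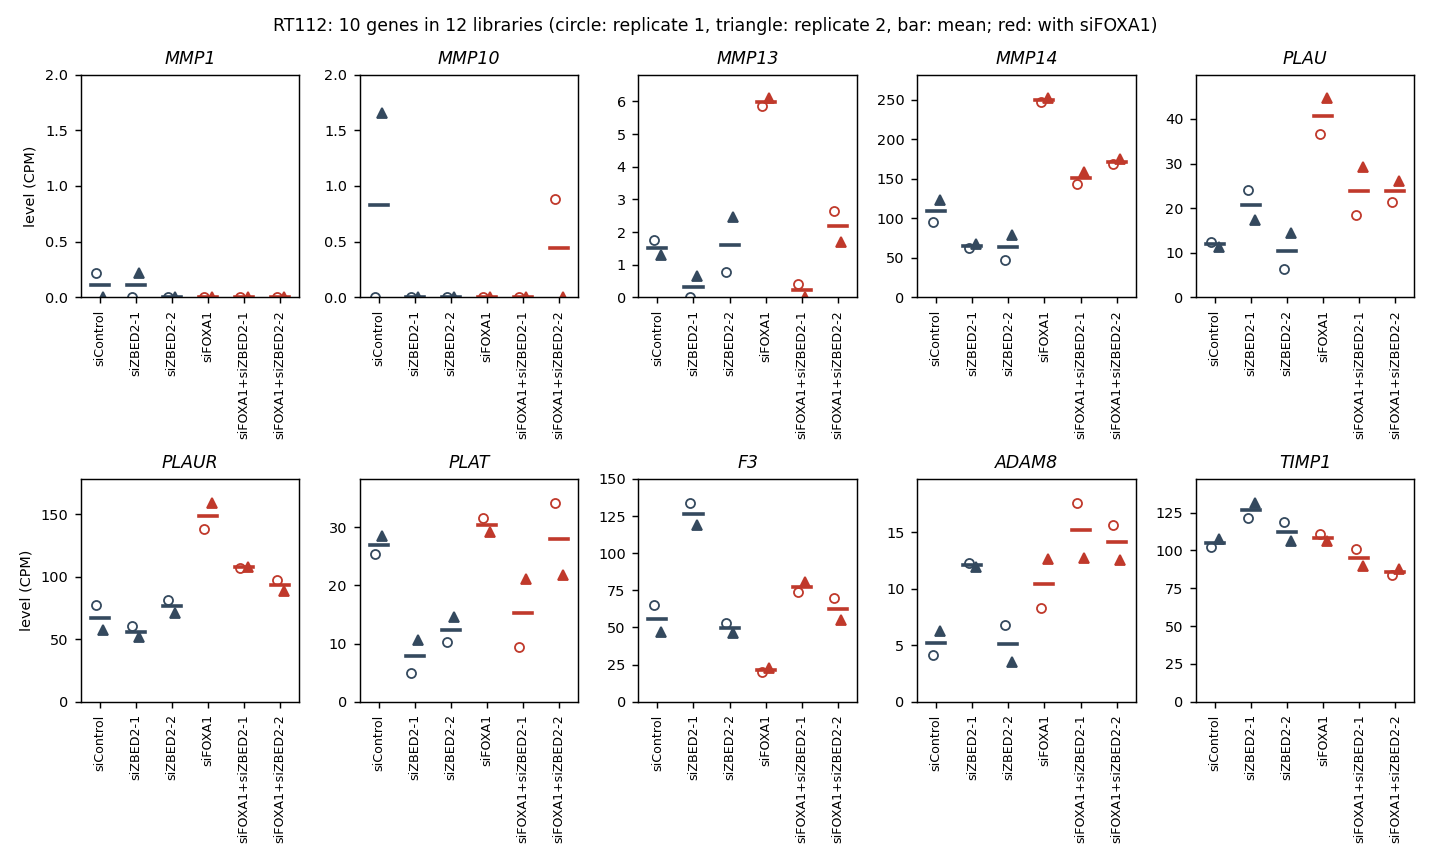
Levels in CPM (vertical axes from 0, 1 scale per gene) of the 10 genes in the 12 RT112 libraries by siRNA, with replicate 1 as open circles, replicate 2 as filled triangles, bars for group means and red for groups with siFOXA1. F3 is lowest under siFOXA1 alone, at 20.2 and 22.9 CPM, and highest under siZBED2-1 alone, at 134 and 119 CPM, while MMP1 and MMP10 stay near 0.

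ADAM8 had the lowest adjusted p of the members for siFOXA1 in SCaBER. Its levels were 209 and 215 CPM under siControl and 858 and 789.8 CPM under siFOXA1 (log2 fold change 1.94 ± 0.12, adjusted p 2.57e-13, within batches 2.03 and 1.87). The ZBED2 siRNAs alone left ADAM8 at 351 and 312 CPM for siZBED2-1 (0.62 ± 0.12, adjusted p 0.00124) and at 234 and 273 CPM for siZBED2-2 (0.26 ± 0.12, adjusted p 0.623). Their mean change passed (0.44 ± 0.11, adjusted p 0.0219) but not without siControl replicate 1 (0.42, adjusted p 0.18) or 2 (0.47, adjusted p 0.124), siZBED2-1 replicate 1 (0.41, adjusted p 0.0728) or siZBED2-2 replicate 2 (0.39, adjusted p 0.0615). On top of siFOXA1 the sign was opposite, with 619 and 561 CPM and 639.9 and 539.9 CPM in the double knock-downs, all 4 libraries below both siFOXA1 libraries (−0.47 ± 0.10, adjusted p 0.00356). The interaction was −0.91 ± 0.15, adjusted p 0.000335 (within batches −0.90 and −0.96), and it passed with each of the 12 SCaBER libraries left out in turn. ADAM8 still rose when siFOXA1 was added to the ZBED2 siRNAs (1.02 ± 0.09, adjusted p 1.01e-10).

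In RT112, ADAM8 was at 3.498 to 17.6 CPM, with 4.15 and 6.26 CPM under siControl, 8.28 and 12.6 CPM under siFOXA1 and 12.3 and 12.0 CPM under siZBED2-1. Both siRNA groups lay above siControl without passing the test (siFOXA1 0.98 ± 0.50, adjusted p 0.166; siZBED2-1 1.21 ± 0.49, adjusted p 0.144). The difference between the lines in the siFOXA1 change was 0.98 ± 0.33, adjusted p 0.115. Its 95% interval of 0.30 to 1.65, which is not adjusted for the number of genes tested, lay above 0, while the adjusted p did not pass.

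TIMP1, the MMP inhibitor of the set, had the narrowest range of the 10 genes in each line. Its levels ran from 83.6 to 132 CPM over the 12 RT112 libraries and from 34.4 to 68.3 CPM in SCaBER, 1.57-fold and 1.99-fold from lowest to highest. With siFOXA1 it stood at 110.5 and 106 CPM in RT112, overlapping the siControl levels of 102 and 108 CPM (0.03 ± 0.16, adjusted p 0.921, 95% interval −0.30 to 0.37). In SCaBER the siFOXA1 levels of 66.7 and 68.3 CPM lay above those of siControl, 34.4 and 59.7 CPM, without passing (0.50 ± 0.23, adjusted p 0.138), and TIMP1 was called without siControl replicate 2 (0.96, adjusted p 0.0155). A single TIMP1 call was made within a line: the double knock-downs in RT112, at 101 and 89.6 CPM and 83.6 and 87.7 CPM, were lower than the ZBED2 siRNAs alone at 121 and 132 CPM and 119 and 106 CPM (−0.40 ± 0.12, adjusted p 0.0138). It was lost without siZBED2-2 replicate 1 (−0.36, adjusted p 0.0624), siZBED2-1 replicate 2 (−0.37, adjusted p 0.0632), siFOXA1+siZBED2-2 replicate 1 (−0.39, adjusted p 0.0537) or siFOXA1+siZBED2-1 replicate 2 (−0.36, adjusted p 0.0745).

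The effect of siFOXA1 could be read on siControl and on the ZBED2 siRNAs, in comparisons that share no library. Added to the ZBED2 siRNAs it changed 4 of 8 members in RT112 (beside 20.1% of all genes) and 4 of 10 in SCaBER (beside 10.1%). MMP14 and PLAUR were called as higher on both backgrounds in both lines, as was ADAM8 in SCaBER, and MMP1 was called as lower on both in SCaBER. F3 was called on siControl and not on the ZBED2 siRNAs in either line. With all libraries its difference between the backgrounds passed in RT112 only (1.19 ± 0.27, adjusted p 0.0336, and 0.43 ± 0.17, adjusted p 0.21 in SCaBER). PLAU in RT112 was also called on siControl and not on the ZBED2 siRNAs, and its interaction did not pass (−1.06 ± 0.45, adjusted p 0.321). PLAT and TIMP1 were called in RT112 on the ZBED2 siRNAs and not on siControl. The interaction called 1 member of 8 in RT112, beside 0.611% of all genes, and 2 of 10 in SCaBER, beside 2.29%. Against siFOXA1 alone, the double knock-downs differed for 2 members in RT112 (beside 1.96%) and for 5 in SCaBER (beside 3.84%), while siZBED2-1 and siZBED2-2 differed from each other for 1 member in RT112 (beside 7.77%) and 3 in SCaBER (beside 4.01%). In the test of the siFOXA1 change between lines, 1 of 10 members was called, beside 2.58% of genes.

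**Figure D5:**
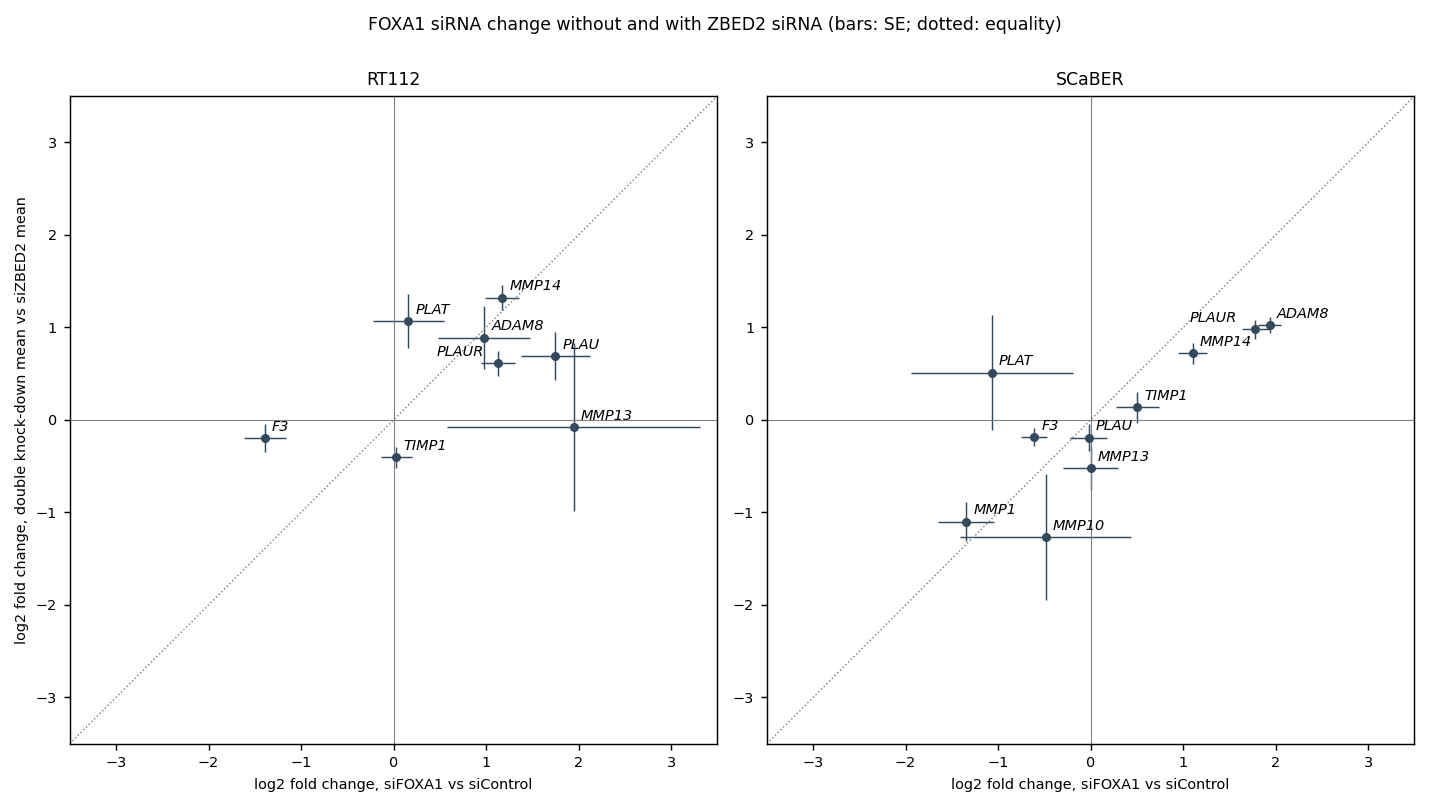
Log2 fold change with siFOXA1 on siControl (horizontal axis) against that on the mean of the ZBED2 siRNAs (vertical axis) for the tested genes in RT112 (left) and SCaBER (right), with bars for the standard error and a dotted line of equality. PLAUR and ADAM8 lie below the line in SCaBER, at 1.78 against 0.98 and 1.94 against 1.02, and F3 lies above it in RT112, at −1.39 against −0.20.

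Other genes of the same pathways were read from 7 lists of 98 genes in all, chosen like the members with earlier results of these data known. siFOXA1 raised 17 and lowered 11 of the 59 tested in RT112, and raised 12 and lowered 9 of the 64 tested in SCaBER, where 23.3% and 17.8% of all genes were called. Among other MMPs, 1 of 4 tested changed in RT112 (MMP15, 0.96 ± 0.35, adjusted p 0.046), a call lost without siControl replicate 2 (0.60, adjusted p 0.421) or siFOXA1 replicate 2 (0.70, adjusted p 0.313). Of the inhibitor list (TIMPs and RECK), 2 of 3 tested rose in RT112, namely TIMP2 (1.50 ± 0.17, adjusted p 4.29e-07) and TIMP3 (0.96 ± 0.12, adjusted p 1.65e-06). In SCaBER edgeR called 0 of the 7 other MMPs and 0 of the 4 inhibitors tested, and the lowest adjusted p in these lists were 0.198 and 0.0922. At an unadjusted p under 0.05 there were 0 and 1, beside 3815 of 13129 genes tested. In the plasminogen list, 1 of 8 rose and 2 fell in RT112, where ANXA2 and S100A10 encode an annexin complex that binds plasminogen at the cell surface (ANXA2 0.67 ± 0.12, adjusted p 0.000162; S100A10 −0.88 ± 0.13, adjusted p 2.02e-05).

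In SCaBER, 2 of 10 genes of the plasminogen list rose and 2 fell with siFOXA1. SERPINB2, an inhibitor of PLAU, rose with siZBED2-1 in SCaBER (2.75 ± 0.24, adjusted p 1.14e-09).

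In the tissue factor list, THBD (thrombomodulin, which restrains clotting) fell with siFOXA1 in RT112 (−1.71 ± 0.31, adjusted p 0.000207) and also fell in SCaBER (−1.01 ± 0.22, adjusted p 0.000806). The list held 2 higher and 2 lower genes of 8 tested in RT112, and THBD was the 1 call of 7 in SCaBER. Of the ADAM and ADAMTS list, 3 rose and 1 fell among 8 tested in RT112 and among 9 tested in SCaBER. ADAM17, which sheds membrane proteins, rose in RT112 (0.70 ± 0.14, adjusted p 0.000474) and also in SCaBER (0.60 ± 0.17, adjusted p 0.0103), where the call was lost without siControl replicate 1 (0.50, adjusted p 0.135) or siFOXA1 replicate 2 (0.58, adjusted p 0.054). Of the other pericellular proteases and inhibitors, 5 of 14 rose and 2 fell in RT112, and 3 of 14 rose and 2 fell in SCaBER. SPINT1, an inhibitor of the membrane protease matriptase, rose in both lines (1.51 ± 0.18, adjusted p 1.41e-06 in RT112 and 0.75 ± 0.18, adjusted p 0.00216 in SCaBER). ST14, which encodes matriptase, rose in RT112 (1.24 ± 0.17, adjusted p 7.55e-06) and also in SCaBER (0.57 ± 0.16, adjusted p 0.0113), in the latter not without siControl replicate 1 (0.59, adjusted p 0.0512) or siControl replicate 2 (0.55, adjusted p 0.0716). The kallikrein gene KLK5 stood in RT112 near the floor under siControl, at 0.874 and 0.552 CPM, and at 37.8 and 43.95 CPM under siFOXA1 (5.80 ± 0.58, adjusted p 7.08e-08).

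Of the AP-1 and ETS transcription factor genes, 3 of 14 rose and 4 fell with siFOXA1 in RT112, and 4 of 13 rose and 3 fell in SCaBER. JUN rose in RT112 (0.60 ± 0.14, adjusted p 0.00217) and SCaBER (1.02 ± 0.16, adjusted p 1.6e-05). JUNB rose in SCaBER (0.67 ± 0.14, adjusted p 0.000757) and was lower in RT112 (−0.57 ± 0.17, adjusted p 0.0171), where the call was lost without siControl replicate 1 (−0.60, adjusted p 0.0598), siFOXA1 replicate 1 (−0.47, adjusted p 0.14) or siControl replicate 2 (−0.53, adjusted p 0.124), and the lines differed for it (1.24 ± 0.21, adjusted p 0.000548). JUND rose in RT112 (1.49 ± 0.16, adjusted p 1.79e-07) and ATF3 in SCaBER (1.97 ± 0.31, adjusted p 1.46e-05). ETV4, of the ETS family, fell in RT112 (−1.83 ± 0.35, adjusted p 0.000369) and SCaBER (−2.72 ± 0.48, adjusted p 7.7e-05). These factors were measured as RNA, and their binding to the promoters above was not measured in these libraries.

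With siZBED2-1, 5 list genes rose and 7 fell in RT112, and 5 rose and 2 fell in SCaBER, beside 8.8% and 4.65% of all genes. Between siZBED2-1 and siZBED2-2, 10 of 59 list genes differed in RT112 and 7 of 64 in SCaBER, beside 7.77% and 4.01% of all genes. With siZBED2-1 against siControl in RT112, TIMP3 (−1.20 ± 0.12, adjusted p 2.29e-07) and THBD (−1.65 ± 0.31, adjusted p 0.000814) fell, whereas TIMP2 (1.10 ± 0.17, adjusted p 7.35e-05) and ANXA2 (0.96 ± 0.12, adjusted p 6.11e-06) rose. MMP2, the gelatinase that MMP14 activates, also fell in RT112 (−2.19 ± 0.54, adjusted p 0.00965), but not without siZBED2-1 replicate 1 (−2.01, adjusted p 0.0935) or siControl replicate 2 (−1.92, adjusted p 0.0981). In SCaBER MMP3, a stromelysin gene of the chromosome 11 cluster, rose (1.56 ± 0.38, adjusted p 0.0111), except without siControl replicate 2 (1.32, adjusted p 0.145) or siZBED2-1 replicate 2 (1.53, adjusted p 0.0718), and CTSB, a cathepsin gene, rose as well (0.89 ± 0.13, adjusted p 1.24e-05). With siZBED2-2, the 1 list gene called in either line was the inhibitor gene SERPINE2 in SCaBER (−2.49 ± 0.39, adjusted p 0.000379). Under siControl, 23 list genes were higher and 15 lower in SCaBER than in RT112, of 72 tested, beside 33.6% of all genes.

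The genes whose levels followed each member most closely were sought by Pearson's r of log2 CPM, centred per line, over the 24 libraries, or over 12 SCaBER libraries for MMP1 and MMP10. The libraries share batches and treatments, so r is given as a description. PLAUR was followed most closely by SDC4 (r = 0.954), TMCC1 (0.934) and HELZ2 (0.918), and MMP14 by YWHAB (0.923), PTPN1 (0.908) and ZMAT2 (0.905). For ADAM8 the closest were SELENOW (0.898), TMEM40 (0.887) and AKIRIN1 (0.880), and F3 was followed by BASP1 (0.860) and CAV2 (0.843). MMP1 was followed by GPRC5A (0.963), BNIP3 (0.942) and MCC (0.922) over 12 libraries. The highest r was lower for the other members, at 0.893 for MMP10 (SLC39A14), 0.800 for PLAU (JCAD), 0.796 for MMP13 (EPS8), 0.778 for PLAT (IDH3B) and 0.751 for TIMP1 (KLHL20).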

How the data were processed

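RNA of 24 libraries (12 groups of 2) was measured by QuantSeq FWD 3′ RNA-seq. The authors deposited raw counts of reads per gene, unscaled whole numbers. By the submitters' processing notes, raw-qc 2.1.0, TrimGalore 0.6.2 (minimum quality 20, minimum length 10) and STAR 2.6.1a with hg38 and GENCODE 29 made them; the methods of the study name hg19, and hg38, as in the settings beside the counts, was taken. The authors also deposited TPM values, scaled by gene length, which 3′ reads do not follow; these served as an alternative only.

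Counts were tested with edgeR 4.0.16 in R 4.3.3 (glmQLFit and glmQLFTest, TMM, filterByExpr with minimum count 10 and minimum total 15, Benjamini-Hochberg adjustment over all genes tested, threshold 0.05). A mean per group was fitted over the 12 libraries of a line (13264 genes in RT112, 13129 in SCaBER) or over all 24 (14823 genes), and 18 comparisons were made. SE was worked back from the test, as the absolute log2 fold change divided by the square root of its F statistic. Low counts had a prior count of 0.125 added. Alternatives were RLE scaling, library size alone, no filter, DESeq2 1.42.0, limma 3.58.1 on log2(TPM + 1), the replicate number as a block, and each library left out in turn. Changes within a batch are log2 ratios of the CPM of equal replicate numbers. The steps were tested on simulated counts. No library was a near copy of another: chi-square per gene was 6.07 to 22.1 between replicates and at least 6.07 over all 276 pairs.

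Equal replicate numbers mark a shared experiment batch in the labels, which is where the pairing comes from. Over all genes, deviations of equal numbers correlated at 0.0401 on average in RT112 and 0.0328 in SCaBER, and 0 of 15 pairs of groups in either line were above 0.1. The members and lists were chosen with earlier results of these data known. The genes named were the 10 members, FOXA1 and ZBED2, up to 5 called genes per list and comparison by smallest p (those shown are a selection of these), and for each member the genes with the highest likeness (up to 3). Some of the genes this rule names are not reported here. All 10 symbols matched RefSeq. Coordinates (1-based) and promoter sequences are from its GRCh38.p14 tables. Paralogs of the MMP family and overlapping genes can share reads with members.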

Additional observations from a re-analysis of the deposited data

Results flagged for a closer look

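The results below were singled out because a test of a difference between groups passed (edgeR's quasi-likelihood test with Benjamini-Hochberg adjustment, 2 libraries per group). In RT112 the change of F3 with the ZBED2 siRNAs under siFOXA1 exceeded that under siControl by 1.19 on the log2 scale (SE 0.27, adjusted p 0.0336), a call lost in 5 of the 12 fits without 1 library, with an adjusted p of up to 0.222. That value takes the mean of siZBED2-1 and siZBED2-2, whose F3 changes against siControl differed (1.17 and −0.18). In RT112, ZBED2 itself was not called as lower under siZBED2-2 alone (adjusted p 0.903). The same was true of the double knock-downs against siFOXA1 (adjusted p 0.573). In SCaBER the difference between the ZBED2 siRNA changes under siFOXA1 and siControl was −0.80 for PLAUR (SE 0.17, adjusted p 0.0076) and −0.91 for ADAM8 (SE 0.15, adjusted p 0.000335). For PLAUR it was lost without siControl replicate 1 (−0.71, adjusted p 0.0542) or siFOXA1 replicate 2 (−0.68, adjusted p 0.0543), while for ADAM8 it passed without any 1 of the 12 libraries. Between the lines, the siFOXA1 change of PLAU was lower in SCaBER than in RT112 by −1.77 (SE 0.40, adjusted p 0.00945), which was lost without SCaBER siControl replicate 2 (−1.38, adjusted p 0.0562). All 4 differences had the same sign in both batches, which hold the libraries that gave the calls, so this is no separate check.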

How the results depend on the processing

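Member counts are out of 8 tested in RT112 and 10 in SCaBER. Over 62 member values that passed in edgeR or in an alternative, RLE scaling left 60 on their side of the threshold, library size alone 61, no filter 53, DESeq2 51, the replicate block 55 and limma on TPM 36 (25 lost their call), and no member value reversed. With limma on TPM the called members were 1 for siZBED2-1 (3 with edgeR), 0 for the siZBED2 mean (2), 1 for the double knock-downs against siFOXA1 (2) and 2 against siZBED2 (4), and 0 for the interaction (1) in RT112. In SCaBER they were 1 for siZBED2-1 (3), 0 for the siZBED2 mean (2), 0 between the ZBED2 siRNAs (3), 1 for the double knock-downs against siFOXA1 (5) and 0 for the interaction (2). On TPM, ANXA2 in the double knock-downs against siZBED2 in RT112 changed sign (−0.0118, adjusted p 0.965). Library size alone left 1 member for the double knock-downs against siFOXA1 in RT112. For siZBED2-2 (0 members in either line), no filter gave 1 in RT112 and 1 in SCaBER, DESeq2 1 in RT112, and the replicate block 1 in each. For the difference between lines (1), no filter gave 3, DESeq2 4 and the replicate block 2. The replicate block, whose pairing comes from the labels, added 7 member calls, given in the report where they concern a value printed there, and ended none. Its other additions were PLAU in the double knock-downs against siZBED2 in RT112 (0.68, adjusted p 0.0449) and ADAM8 between the ZBED2 siRNAs in SCaBER (0.35, adjusted p 0.0407). The causes of these shifts were not tested.

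Without 1 library each, the member counts ranged in RT112 from 4 to 4 for siFOXA1, 1 to 3 for siZBED2-1, 0 to 1 for siZBED2-2, 0 to 2 for the siZBED2 mean, 1 to 2 between the ZBED2 siRNAs, 1 to 2 for the double knock-downs against siFOXA1, 2 to 5 against siZBED2 and 0 to 1 for the interaction. In SCaBER the ranges in the same order were 4 to 5, 2 to 3, 0 to 1, 1 to 2, 1 to 3, 2 to 6, 4 to 6 and 2 to 2. They were 8 to 8 between lines under siControl and 1 to 2 for the line difference. With a library left out, the lone sample of its group is assumed to vary like the other groups. Counts of all genes called moved by over 1.5 times in several comparisons. In RT112, siZBED2-2 went from 22 to 58 with no filter, 70 with DESeq2, 44 with the block and 3 on TPM; the siZBED2 mean from 314 to 486 with the block and 13 on TPM; the double knock-downs against siFOXA1 from 260 to 430, 422, 444 and 3; and the interaction from 81 to 224, 238, 212 and 4 in the order given first. On TPM siZBED2-1 went from 1167 to 345 and the ZBED2 siRNAs against each other from 1031 to 348. In SCaBER, siZBED2-2 went from 82 to 125 with the block and 3 on TPM, the interaction from 300 to 464 with DESeq2, 508 with the block and 31 on TPM, and the line difference from 382 to 845, 597 and 251. On TPM the other SCaBER counts were 236 for siZBED2-1 (610), 82 for the siZBED2 mean (240), 178 between the siRNAs (527), 214 for the double knock-downs against siFOXA1 (504) and 670 against siZBED2 (1331). Without 1 library each, the all-gene counts ran in RT112 from 1869 (without siControl replicate 2) to 2870 for siFOXA1 (3084 with all), 589 to 752 for siZBED2-1 (1167), 14 to 42 for siZBED2-2 (22), 74 (without siControl replicate 2) to 318 for the siZBED2 mean (314), 487 to 667 between the siRNAs (1031), 30 (without siFOXA1 replicate 2) to 378 for the double knock-downs against siFOXA1 (260), and 13 (without siFOXA1 replicate 2) to 330 (without siFOXA1 replicate 1) for the interaction (81). In SCaBER they ran from 302 to 450 for siZBED2-1 (610), 34 (without siZBED2-2 replicate 1) to 81 for siZBED2-2 (82), 92 (without siControl replicate 2) to 240 for the siZBED2 mean (240), 233 to 303 between the siRNAs (527), 211 (without siFOXA1 replicate 2) to 583 for the double knock-downs against siFOXA1 (504) and 872 to 1131 against siZBED2 (1331). For the line difference (382) they ran from 199 (without RT112 siFOXA1 replicate 2) to 565. With library size alone the median change of all genes with siFOXA1 in RT112 was −0.111, against −0.0149 with TMM, and on TPM it was −0.261. Higher genes were 38.6% of the calls there with library size alone and 18.3% on TPM, against 48.6% with TMM. In the double knock-downs against siZBED2 in RT112 they were 35.1% and 14.2% against 49.3%, and in the SCaBER interaction 59.9% and 64.5% against 47.0%. On TPM they were 31.2% against 48.9% for siFOXA1 in SCaBER, 65.7% against 51.1% between lines under siControl, and 71.7% against 54.7% for the line difference. No called member changed direction under these scalings. Of the list gene values that passed in edgeR or in an alternative, limma on TPM ended 86 calls, left 125 on their side and reversed 1, library size alone ended 12, DESeq2 4, no filter 3 and the block 2, while fits without 1 library ended 244 and kept 921. Of 102 further member values that passed in none of the fits on all libraries, 80 of 1222 alternative fits changed sign, and 10 fits that left out a library passed. Beside those in the report, these were PLAU between the ZBED2 siRNAs in RT112 without siZBED2-2 replicate 2 (1.69, adjusted p 0.0259), ADAM8 in the double knock-downs against siZBED2 in RT112 without siZBED2-2 replicate 1 (1.16, adjusted p 0.0376) and MMP13 in the same comparison in SCaBER without siZBED2-2 replicate 1 (−0.72, adjusted p 0.0419).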
